A study of Mus musculus with 32 samples.

Results

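The mouse mitochondrial genome encodes 37 genes, 13 for proteins, 2 for ribosomal RNAs and 22 for tRNAs, and all 37 were found by the prefix mt- among the 53465 genes of the count table. At least 1 count was recorded for 25 of them, and 12 had 0 counts in all 32 libraries. The libraries were made from 500 sorted spleen cells each with the SMART-Seq v4 kit, which amplifies full-length cDNA from very few cells. The mice were C57BL/6, 12 weeks old, and had received NP-CGG with alum intraperitoneally 14 days before sorting. Naive B cells, dark zone and light zone germinal centre B cells and plasma cells were each taken from AID-cre WT mice and from AID-cre aPIK3CD mice, which gave 8 groups of 4 libraries. All groups, the WT included, carried AID-cre, a Cre recombinase driven by the gene of activation-induced deaminase, which B cells switch on when they enter a germinal centre response. This limits the naive groups as a model of the aPIK3CD genotype. The series is about activated signalling by PI3-kinase delta, and a count per gene does not show which Pik3cd allele was transcribed. In the 4 libraries titled aPIK3CD replicate 1 the genotype field reads WT, so the genotype comparison that made calls is also given with them counted as WT. Within a genotype the 4 populations of one replicate number carry the same sample name and letter in their descriptions, and the labels do not say whether that name is a mouse. Nor do they say that replicates came from separate mice, so p-values measure the spread between these samples.

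The proteins encoded on mitochondrial DNA are core subunits of the respiratory chain and of ATP synthase: mt-Nd1 to mt-Nd6 and mt-Nd4l of complex I, mt-Cytb of complex III, mt-Co1 to mt-Co3 of complex IV, and mt-Atp6 and mt-Atp8 of complex V. They are transcribed as long polycistronic RNAs from both strands, from which the tRNAs that lie between them are cut out, and they are translated on mitochondrial ribosomes that contain the rRNAs mt-Rnr1 (12S) and mt-Rnr2 (16S). All other subunits of these complexes, and all of complex II, are encoded in the nucleus.

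Total counts were 1965329 to 2820830 in naive B cells, 902088 to 1941224 in germinal centre cells other than dark zone WT replicate 3, and 473149 to 788999 in plasma cells. Dark zone WT replicate 3 stood apart with 25797 counts in all. Results that rest on it are given with and without it, or are named as including it. The summed level of 6 plasma cell markers was 9087 to 11810 CPM (counts per 1e6 counts of the library) in plasma cells and 466 to 665 in naive WT B cells. The 6 germinal centre markers reached 2077 to 2520 in dark zone WT and 62 to 116 in naive WT B cells. In plasma cells the 5 T cell markers summed to 91 to 273 CPM in WT and 102 to 141 in aPIK3CD, and the 5 myeloid markers to 2.11 to 304 and 6.11 to 395, with S100a8 and S100a9 at 0. The 5 erythroid markers summed to 0 to 5.68 CPM in plasma WT and 0 to 212 in plasma aPIK3CD.

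The members that carried no counts were not spread evenly over the mitochondrial genome. In the order of the genes on mitochondrial DNA (GENCODE M21), 8 successive genes from mt-Ts1 to mt-Tg, which include mt-Co2, mt-Atp8, mt-Atp6 and mt-Co3, were at 0 in every library. mt-Nd3, the gene after that run, had 83 counts in all and at most 6 in a library, and mt-Nd4l was at 0. The remaining genes at 0 were the tRNAs mt-Tw, mt-Ty and mt-Th. Over the 46432994 counts of the 32 libraries, 0 counts allow a level of up to 0.0646 CPM (3 counts), which covers counting error only.

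The same protein genes have near-identical copies in the nuclear genome. Each annotated transcript was split into windows of 50 bases and searched exactly in all other GENCODE M21 transcripts. Of the windows of mt-Co2, 100% were shared, of mt-Co3 99.9%, of mt-Atp6 99.5%, of mt-Nd4l 98.8% and of mt-Nd3 98%. These 5 genes had 0 or few counts. mt-Atp8 was at 0 too but shared 0% of its 155 windows. Sequence outside annotated transcripts was not searched, so copies there of mt-Atp8 or of a tRNA would not be found. mt-Nd4 shared 62.2% and mt-Co1 51.1%, both of which had counts. mt-Nd2 shared 8.19%, mt-Nd5 7.61% and mt-Rnr2 1.04%, and mt-Rnr1, mt-Nd1, mt-Nd6, mt-Cytb and every tRNA shared 0%. The length of the reads is not given in the sources used.

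The first 60 bases of mt-Co2, the gene of cytochrome c oxidase subunit II, are shown with the same bases of 2 nuclear copies, to show what a read from this gene has to be told apart from. Over 681 aligned bases mt-Co2 and Gm28661 were identical, and Gm13341 differed at 2 of the bases shown, which are in capitals. Gm28661 had 1 count over the 32 libraries and Gm13341 had 168.
mt-Co2: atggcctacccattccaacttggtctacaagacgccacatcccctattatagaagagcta
Gm28661: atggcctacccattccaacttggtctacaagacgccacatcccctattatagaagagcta
Gm13341: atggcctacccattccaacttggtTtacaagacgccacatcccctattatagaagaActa

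mt-Nd4, of complex I, and mt-Co1, the catalytic subunit of complex IV, each share part of their sequence with nuclear copies. For 1 copy of each, the 80 bases around the border of the shared part are shown, with the bases shared with that copy in capitals. In mt-Nd4 the part shared with Gm28439 ends at base 876 of the transcript (bases 837 to 916 are shown), and in mt-Co1 the part shared with Gm29216 begins after base 1066 (bases 1027 to 1106). Gm29216 holds 430 of the 765 shared windows of mt-Co1. Gm13340 shares 411, so bases in lower case in mt-Co1 are not free of other copies.
mt-Nd4: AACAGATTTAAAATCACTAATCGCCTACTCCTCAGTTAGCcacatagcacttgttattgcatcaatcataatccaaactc
mt-Co1: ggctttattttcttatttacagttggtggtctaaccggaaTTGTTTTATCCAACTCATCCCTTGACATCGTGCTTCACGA

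Per base of the whole transcript mt-Co1 reached at most 0.916 counts and mt-Nd4 at most 0.58, lower than mt-Cytb at 1.77 and mt-Nd1 at 1.61. Divided by the 731 windows of mt-Co1 and the 502 of mt-Nd4 that no other gene shares, the highest library had 1.94 and 1.59 counts per window, against 1.84 for mt-Cytb and 1.69 for mt-Nd1. With windows of 100 bases the value was 1.42 for mt-Co1 and 1.59 for mt-Nd4. The sources do not say how reads that fit several places were counted. The levels of mt-Co1 and mt-Nd4 are therefore uncertain, and for mt-Co2, mt-Atp6, mt-Co3, mt-Nd3 and mt-Nd4l absent RNA and reads left out of the counting cannot be told apart. The copies themselves had few counts, with 519 for Gm13340, the most of the 14 copies, over all libraries.

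**Figure D1:**
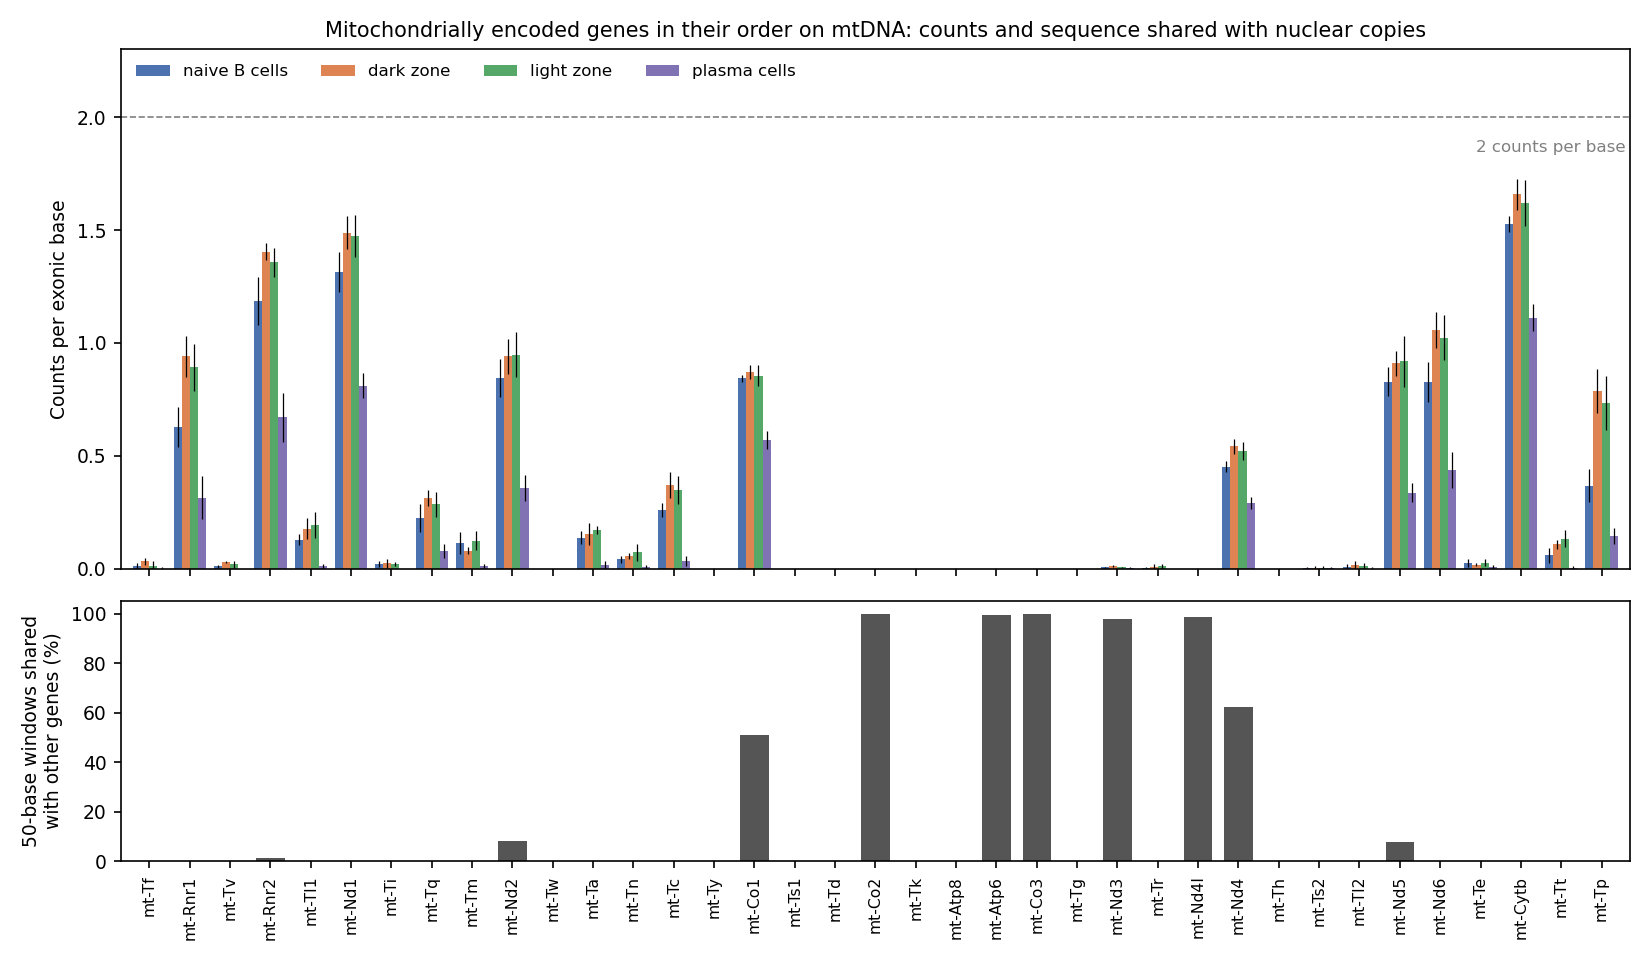
The upper panel plots the mean counts per exonic base of the 37 genes in their order on mitochondrial DNA, for each population over both genotypes (8 libraries, 7 for the dark zone without WT replicate 3, bars 1 SD), and the lower panel the percentage of 50-base windows that another annotated gene shares. The run of genes with no counts from mt-Ts1 to mt-Tg includes mt-Co2, mt-Atp6 and mt-Co3, with 99.5% to 100% of windows shared. It also includes mt-Atp8 and the tRNAs mt-Ts1, mt-Td, mt-Tk and mt-Tg, with 0% shared.

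Of the tRNA genes, 15 of 22 had counts, all low. The 9 long members with counts, mt-Rnr1, mt-Rnr2, mt-Nd1, mt-Nd2, mt-Co1, mt-Nd4, mt-Nd5, mt-Nd6 and mt-Cytb, made up 98.92% of the 307977 mitochondrially encoded counts. The tRNA with the most counts was mt-Tp, the proline tRNA, with 1050 in all and 7 to 66 per library. It is encoded on the opposite strand to mt-Cytb and most protein genes. Its 67 bases are printed because it was the one tRNA that came near 1 count per base, with 0.985 in dark zone aPIK3CD replicate 3.
mt-Tp: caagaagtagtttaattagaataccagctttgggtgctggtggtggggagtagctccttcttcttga

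Whether the counting used strand is not given either, so a gene and RNA from its opposite strand cannot be told apart, which matters for the genes on the less gene-rich strand, mt-Nd6 and 8 tRNAs.

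Across the 31 libraries other than dark zone WT replicate 3 the mitochondrially encoded counts had a narrower range than the totals. Naive B cells had 9029 to 10842 such counts, germinal centre cells 10570 to 12607, and plasma cells 5256 to 6593. Within light zone WT the totals spanned a factor of 2.03 and the mitochondrially encoded counts a factor of 1.1, whereas within naive aPIK3CD the factors were 1.15 and 1.18. The share of a library that these genes took ran against its total: in 8 of 8 groups the library with the smallest total had the highest share. In light zone WT the library of 902088 counts had a share of 1.21% (95% Wilson interval 1.19 to 1.24) and the other 3 had 0.656% to 0.768%.

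The counts of several members lie in the upper range of what any gene reached. No gene of at least 300 exonic bases had over 2.1 counts per base in any library, and of the 114 genes that passed 1 count per base 7 were mitochondrially encoded: mt-Cytb, mt-Nd1, mt-Rnr2, mt-Nd6, mt-Nd2, mt-Rnr1 and mt-Nd5. The submitters' processing notes name Picard, a tool that can mark duplicate reads, without its role, and whether duplicates were removed is not stated. Whether such a bound limited these counts was not tested, and both the count and the level in CPM are given for the members.

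**Figure D2:**
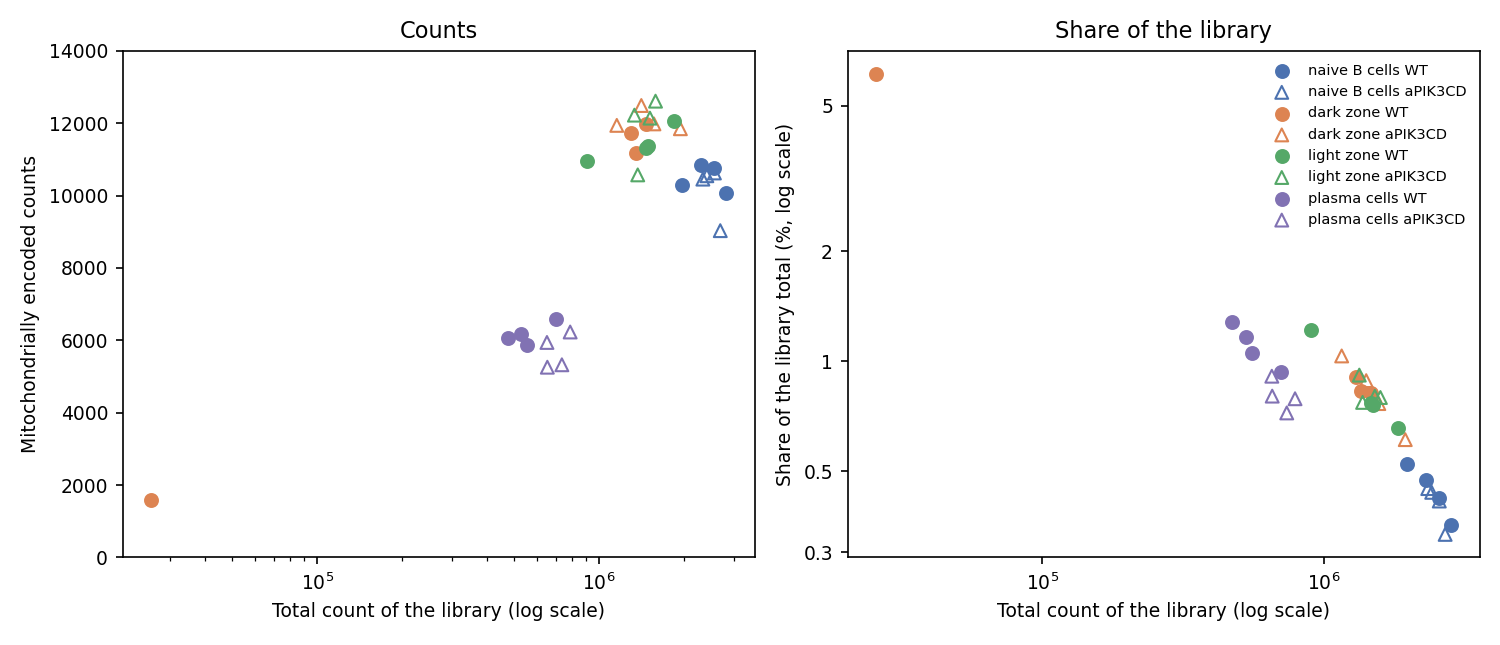
Mitochondrially encoded counts (left) and their share of the library total in percent (right, log scale) are plotted against the total count of each of the 32 libraries (log scale), with filled circles for WT and open triangles for aPIK3CD. The share ran from 0.336% to 1.28% in 31 libraries, lowest in the naive libraries with the largest totals, and the 1 library at the far left is dark zone WT replicate 3.

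Dark zone WT replicate 3 had 1.88% of the mean total of the other 3 dark zone WT libraries, but 13.6% of their mitochondrially encoded counts, which took 6.12% of it (95% Wilson interval 5.84 to 6.42). The members were not reduced alike. mt-Rnr2 kept 23.3% of the mean count of the others, mt-Cytb 14.1%, mt-Nd2 7.63% and mt-Nd5 4.36%.

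Dark zone cells had a higher mitochondrially encoded share than naive B cells, by a ratio of mean shares of 2.01 in aPIK3CD. The shares were 0.357% to 0.524% in naive WT, 0.336% to 0.448% in naive aPIK3CD, 0.818% to 0.905% in dark zone WT without replicate 3, and 0.61% to 1.03% in dark zone aPIK3CD. The naive and dark zone ranges did not overlap in either genotype. The totals differed as well. Mean mitochondrially encoded counts were 1.19 times as high in dark zone as in naive aPIK3CD cells, and the mean total 0.607 times as high. In WT without replicate 3 the ratios were 1.11 and 0.569.

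Single members differed in how far their counts moved. mt-Rnr1, the 12S rRNA, had 561, 667, 566 and 470 counts in the naive aPIK3CD libraries and 850, 1005, 887 and 752 in dark zone aPIK3CD, which is 219, 286, 235 and 175 against 438, 870, 629 and 481 CPM. Its counts did not overlap between these groups, and the ratio of mean counts, 1.54, was the highest of the 9 long members. In TMM-normalized levels 42.9% of the 10470 genes tested did not overlap between these groups. mt-Cytb, the cytochrome b of complex III, had 1800, 1745, 1769 and 1682 against 1933, 1816, 2020 and 1951 counts, a narrow step. mt-Co1 had the lowest ratio of mean counts, 1.05. Of the shorter members mt-Tp had 27, 30, 29 and 18 counts against 51, 52, 66 and 50.

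In edgeR's quasi-likelihood test 12 of 14 tested members rose in dark zone against naive cells in aPIK3CD, where 22.2% of the 10470 genes tested rose and 21.4% fell. Their log2 fold changes were 0.90 (mt-Co1, SE 0.13) to 1.89 (mt-Tp, SE 0.37), with 1.47 for mt-Rnr1 (SE 0.21, adjusted p = 0.000125). The median of the tested members was 1.11 beside -0.01 for all genes tested. mt-Tl1 (1.25, adjusted p = 0.0774) and mt-Ta (0.77, adjusted p = 0.303), tRNAs for leucine and alanine, did not pass. mt-Tq and mt-Tc, which had at most 20 counts in a naive aPIK3CD library, lost their calls without 1 replicate in 7 and 3 of 8 fits. With the replicate number as a block mt-Tq did not pass (1.37, edgeR adjusted p = 0.0769). With the log2 total as a covariate 0 members passed in aPIK3CD, and the share of all genes under it is not given. The totals of naive and dark zone cells do not overlap, so depth and population cannot be told apart.

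In WT, 12 of 14 members rose as well, where 19.8% of 10040 genes rose and 21.6% fell, with a median of 1.84 beside -0.06 for all genes. That size rested on replicate 3 of the dark zone: for mt-Rnr2 the log2 fold change was 2.88 with it (SE 0.67) and 1.04 without it, and for mt-Cytb 2.17 (SE 0.52) and 0.93. Without that library 10 members rose, and mt-Tq (adjusted p = 0.0731) and mt-Tc (adjusted p = 0.0652) did not pass. With the replicate block mt-Tc did not pass (1.41, adjusted p = 0.101). With the log2 total as a covariate 10 members passed in WT, with dark zone replicate 3 in the fit. The totals of naive and dark zone cells do not overlap, so this fit cannot tell depth and population apart. The share of all genes is not given for it or for the fit without replicate 3. mt-Tc lost its call without any 1 of the 8 libraries and mt-Tq in 7 of 8 such fits. Without dark zone replicate 3 mt-Rnr1 stood at 1.39 and mt-Tp at 1.93, above the other members, as in aPIK3CD. Both comparisons were fitted apart and share no libraries.

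Light zone cells were close to dark zone cells. Light zone shares were 0.656% to 1.21% in WT, and the aPIK3CD libraries had 0.772% to 0.916%. Both ranges overlapped those of the dark zone. By edgeR 0 of 14 members passed in light zone against dark zone in either genotype, where 6.04% of genes passed in aPIK3CD and 2.55% in WT, and DESeq2 also called 0 in each. At an unadjusted p below 0.05 there were 0 members in aPIK3CD and 4 in WT, mt-Rnr2, mt-Nd1, mt-Co1 and mt-Cytb, with dark zone WT replicate 3 in the fit. Of all genes tested, 1908 of 9798 in aPIK3CD and 1496 of 9639 in WT had such a p. In aPIK3CD the log2 fold change was 0.00 for mt-Cytb (SE 0.12), -0.08 for mt-Rnr1 (SE 0.17) and 0.08 for mt-Nd5 (SE 0.11). Such values do not show equal levels.

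Plasma cells had a higher share than naive cells from fewer counts. WT plasma cells had shares of 0.936% to 1.28%, and aPIK3CD plasma cells of 0.722% to 0.91%, above all naive libraries. Their mitochondrially encoded counts were 0.588 times (WT) and 0.56 times (aPIK3CD) the naive mean, and their totals 0.235 and 0.284 times. The counts of each of the 9 long members were lower in plasma cells: from 0.38 times for mt-Nd5 to 0.716 times for mt-Cytb in WT, and from 0.389 times for mt-Nd2 to 0.74 times for mt-Cytb in aPIK3CD.

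mt-Cytb had 1747, 1706, 1793 and 1724 counts in naive WT and 1217, 1143, 1366 and 1265 in plasma WT libraries. In CPM these were 889, 605, 703 and 752 against 2187, 2416, 1939 and 2397. The count was thus lower and the level in CPM higher in every plasma cell library. mt-Nd5, of complex I, had 1478, 1574, 1652 and 1622 against 578, 535, 701 and 587 counts, and 752, 558, 648 and 707 against 1039, 1131, 995 and 1112 CPM. Neither measure overlapped between naive and plasma cells. In TMM-normalized levels 46.8% of the 9768 genes tested in WT did not overlap between them.

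By edgeR 10 of 11 tested members rose in plasma WT against naive WT cells, where 25.4% of 9768 genes rose and 24.2% fell. In aPIK3CD 9 of 10 rose, where 26.5% of 9813 genes rose and 26.2% fell. In WT the log2 fold changes ran from 1.14 for mt-Nd5 (SE 0.13, adjusted p = 5.77e-06) to 2.06 for mt-Cytb (SE 0.15, adjusted p = 4.15e-08), and the median of the tested members was 1.801 beside -0.09 for all genes. In aPIK3CD they ran from 0.90 for mt-Nd2 (SE 0.18, adjusted p = 0.00106) to 1.83 for mt-Cytb (SE 0.08, adjusted p = 5.65e-09), with a median of 1.20 beside -0.08. mt-Tp passed in WT (1.41, SE 0.47, adjusted p = 0.0213) and not in aPIK3CD (0.69, SE 0.46, adjusted p = 0.224), and in WT it did not pass with the replicate block (1.44, adjusted p = 0.0518). The totals of naive and plasma cells do not overlap, so depth and population cannot be told apart. With the log2 total as a covariate 0 members passed in edgeR in either genotype. The share of all genes called under that setting is not given. Immunoglobulin and T cell receptor genes took 7.47% to 11% of the counts in plasma cells and 0.933% to 1.25% in naive B cells, and with them left out of the total the log2 ratio of mean mitochondrially encoded shares was 1.46 in WT (1.32 with them) and 1.09 in aPIK3CD (0.98). The T cell markers summed to 1.71 to 65.9 CPM in naive B cells. The 4 natural killer cell markers summed to 118 to 296 CPM in naive B cells and 19 to 123 in plasma cells. The part of such cells in the result was not tested.

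**Figure D3:**
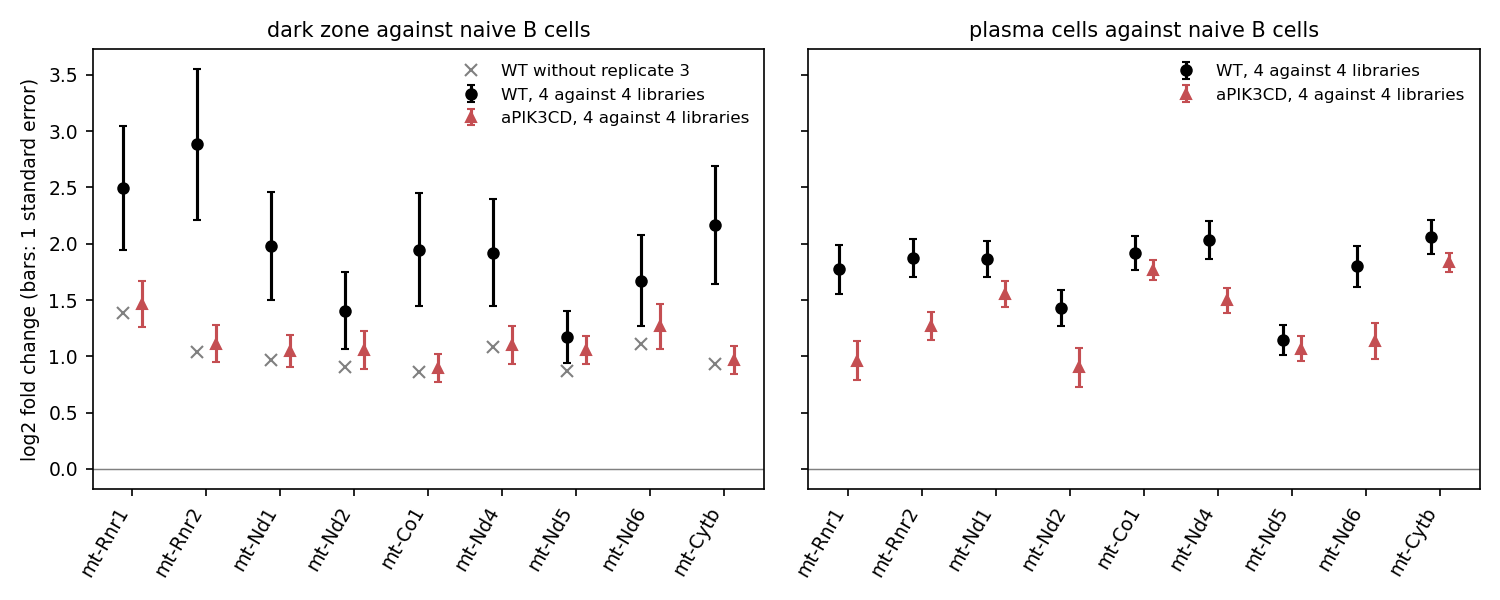
The log2 fold change of the 9 long members, on levels in CPM, is plotted for dark zone against naive (left) and plasma against naive cells (right), black circles for WT and red triangles for aPIK3CD (4 against 4 libraries, bars 1 SE), with crosses for WT without dark zone replicate 3. All values lie above 0, and the crosses lie near the aPIK3CD values, from 0.86 to 1.39.

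By mt-Nd5 per mt-Cytb count and by the tRNA percentage plasma cells lay apart from the other populations, dark zone WT replicate 3 aside. Plasma cell totals lay below those of all other libraries but that one. Depth and population therefore cannot be told apart in these measures. mt-Nd5 had 0.464 to 0.513 counts per mt-Cytb count in plasma WT and 0.403 to 0.543 in plasma aPIK3CD, against 0.777 to 0.974 in naive and germinal centre libraries other than dark zone WT replicate 3, which had 0.267. tRNA genes were 0.286% to 0.488% of the mitochondrially encoded counts in plasma cells and 0.784% to 1.41% in the others. mt-Rnr1 per mt-Cytb count was 0.258 to 0.392 in plasma WT, 0.307 to 0.423 in naive WT and 0.469 to 0.547 in dark zone WT. The plasma and naive WT ranges of this ratio overlapped. Such a ratio also differed between libraries of 1 group: within light zone WT the ratio of mt-Rnr1 was 0.629 in the library with 902088 counts and 0.436 to 0.46 in the other 3.

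**Figure D4:**
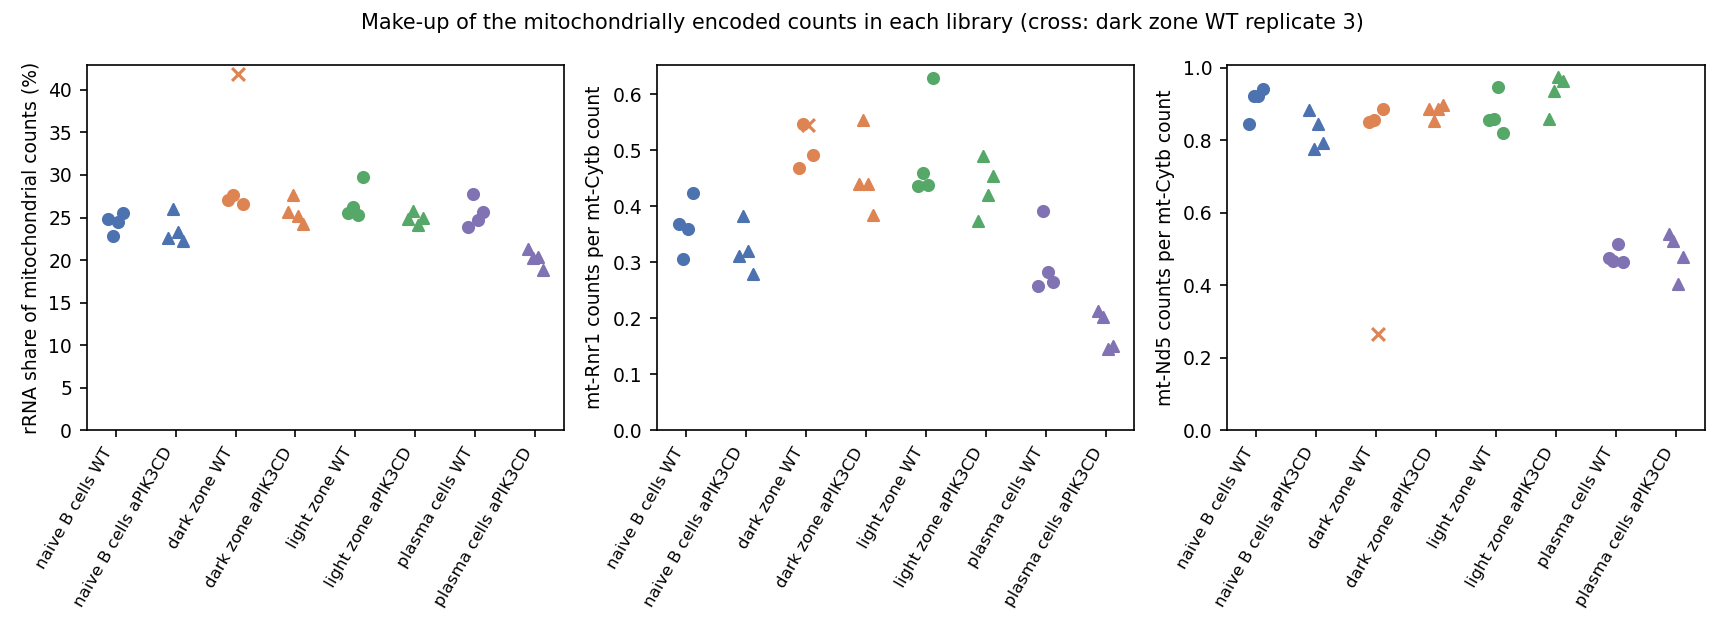
Each point is 1 library in the 8 groups: the percentage of mitochondrially encoded counts from mt-Rnr1 and mt-Rnr2 (left), mt-Rnr1 counts per mt-Cytb count (middle) and mt-Nd5 counts per mt-Cytb count (right), with a cross for dark zone WT replicate 3. The rRNA percentage was 23.9 to 27.8 in plasma WT and 18.8 to 21.3 in plasma aPIK3CD, and the right panel shows all plasma cell libraries at 0.403 to 0.543.

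In plasma cells 4 members were lower in aPIK3CD than in WT: both rRNAs and 2 complex I subunits. The mitochondrially encoded share was 1.06%, 1.28%, 0.936% and 1.17% in the 4 WT libraries (95% Wilson intervals from 0.914 to 1.31) and 0.789%, 0.91%, 0.803% and 0.722% in the 4 aPIK3CD libraries (0.703 to 0.933). The highest aPIK3CD share, 0.91%, lay just below the lowest WT share, and their intervals overlap. Totals ran the other way, with 473149 to 704361 counts in WT against 652722 to 788999. The difference was largest for mt-Rnr1 among the members tested, and for both rRNAs counts and levels were lower in aPIK3CD.

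mt-Rnr1 had 314, 448, 386 and 336 counts in WT and 283, 264, 184 and 193 in aPIK3CD, or 564, 947, 548 and 637 against 359, 405, 281 and 262 CPM. mt-Rnr2, the 16S rRNA, had 1089, 1235, 1246 and 1245 against 1042, 942, 884 and 809 counts. mt-Nd6, a complex I subunit and the one protein gene of the opposite strand, had 263, 270, 262 and 244 against 231, 203, 173 and 166 counts. In all 3 the aPIK3CD counts lay below the WT counts with no overlap, and the aPIK3CD totals were on average 1.25 times as large. In TMM-normalized levels 14.9% of the 7771 genes tested did not overlap between these groups, in either direction. Calls with the log2 total as a covariate are given below. mt-Nd4 had 415, 434, 439 and 425 against 404, 381, 323 and 388 counts, a smaller step in the same direction.

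By edgeR these 4 fell, of 10 members tested, where 1.22% of 7771 genes fell and 1.98% rose, and 0 members rose. The log2 fold changes were -1.07 for mt-Rnr1 (SE 0.20, adjusted p = 0.0219), -0.80 for mt-Nd6 (SE 0.16, adjusted p = 0.0256), -0.76 for mt-Rnr2 (SE 0.13, adjusted p = 0.0197) and -0.57 for mt-Nd4 (SE 0.13, adjusted p = 0.0417). The median of the tested members was -0.59 beside 0.00 for all genes. The members that did not pass were mt-Nd2 (-0.61, adjusted p = 0.0669), mt-Nd1 (-0.42, adjusted p = 0.0721), mt-Cytb (-0.30, adjusted p = 0.0991), mt-Nd5 (-0.28, adjusted p = 0.15), mt-Co1 (-0.23, adjusted p = 0.238) and the tRNA mt-Tp (-0.63, adjusted p = 0.318).

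mt-Cytb and mt-Co1 behaved differently in counts and in levels. mt-Cytb had 1217, 1143, 1366 and 1265 counts in WT and 1332, 1301, 1266 and 1278 in aPIK3CD, and mt-Co1 816, 768, 897 and 889 against 953, 950, 874 and 906. The counts overlapped and were on average slightly higher in aPIK3CD, with the highest ratio of mean counts, 1.09, for mt-Co1 and the lowest, 0.623, for mt-Rnr1. The rRNA genes were 23.9%, 27.8%, 24.8% and 25.7% of the mitochondrially encoded counts in WT and 21.3%, 20.3%, 20.3% and 18.8% in aPIK3CD. mt-Rnr1 per mt-Cytb count was 0.258 to 0.392 and 0.145 to 0.213. Neither measure overlapped between the genotypes. Immunoglobulin and T cell receptor genes took 8.74% to 11% of the counts in WT and 7.47% to 9.07% in aPIK3CD plasma cells. The log2 ratio of mean mitochondrially encoded shares was -0.46, and -0.49 with those genes left out of the total.

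These calls changed with single libraries and with the depth term. The share of all genes called under each of these settings is not given, so whether only the members changed is not known. With the log2 total as a covariate 0 of the 4 passed (mt-Rnr1 -0.65, adjusted p = 0.286). With replicate 1 of aPIK3CD counted as WT 0 passed (mt-Rnr1 -0.95, adjusted p = 0.208), and with it left out 3 passed. DESeq2 called 6. Over its alternatives mt-Rnr1 had an adjusted p of 7.25e-10 (no filter on low counts) to 0.286. 0 passed also without WT replicate 2, aPIK3CD replicate 3 or aPIK3CD replicate 4, and 2, 3 or 7 without another replicate. In those leave-one-out fits mt-Rnr1 stayed between -1.19 and -0.84.

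**Figure D5:**
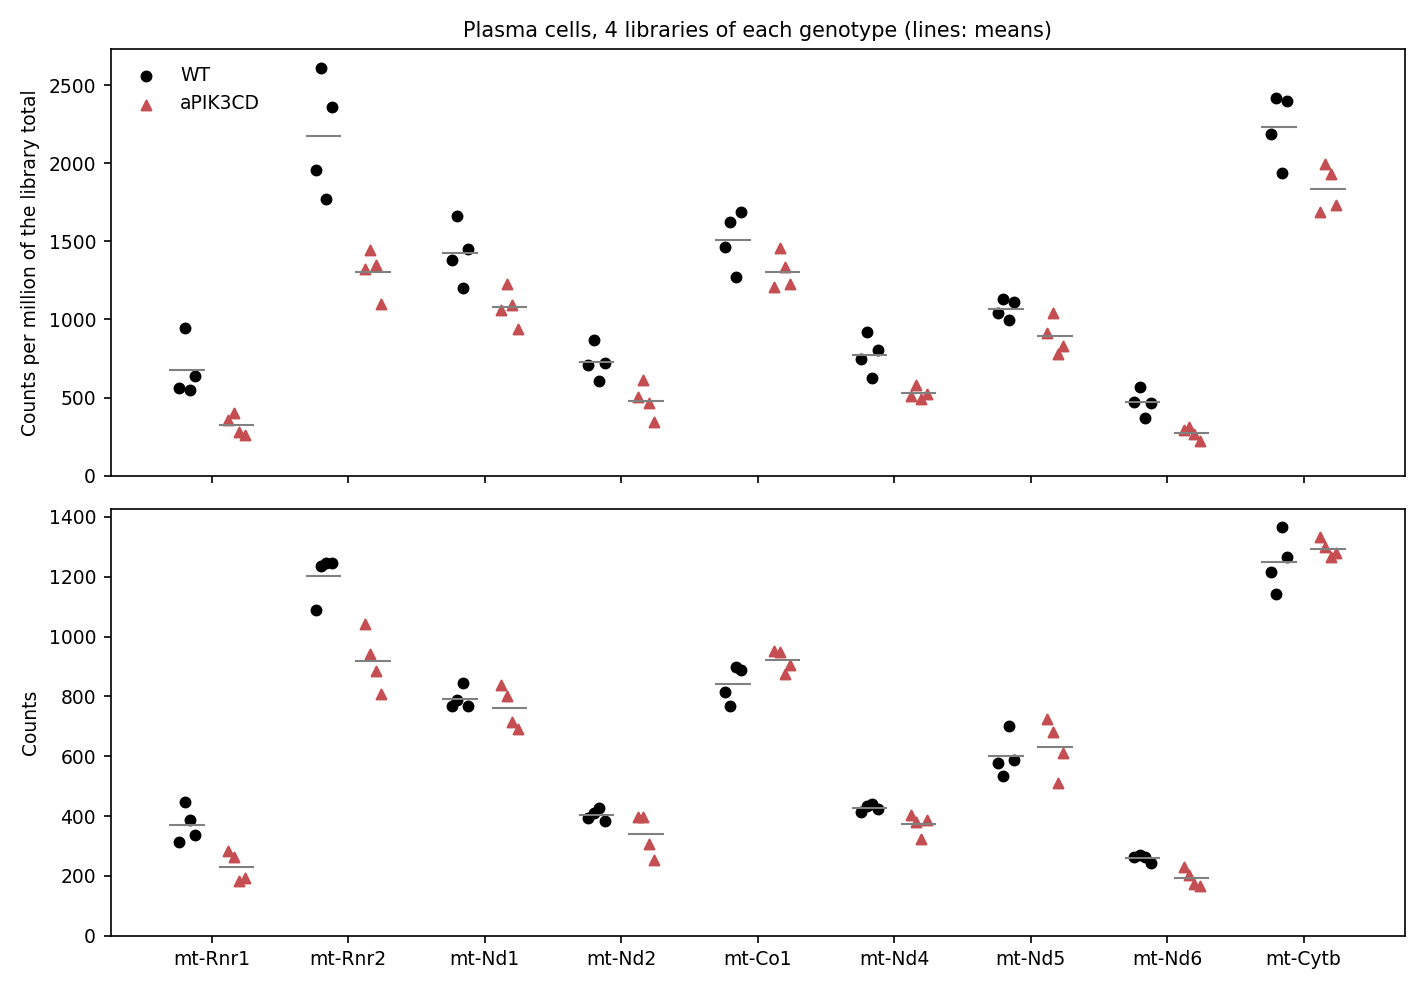
Levels in CPM (top) and counts (bottom) of the 9 long members are plotted for the 4 WT (black circles) and 4 aPIK3CD (red triangles) plasma cell libraries, with lines at the means. For mt-Rnr1, mt-Rnr2, mt-Nd4 and mt-Nd6 the points of the genotypes do not overlap in either panel, and for mt-Cytb and mt-Co1 they overlap in both. Of the 7771 genes tested 14.9% did not overlap in TMM-normalized levels.

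In naive, dark zone and light zone cells no member passed between the genotypes. By edgeR 0 of 12, 0 of 14 and 0 of 14 tested members were called, where 0%, 0.021% and 0% of genes were, and DESeq2 called 0 in each. In the dark zone 6 members passed with a replicate block and 6 with no filter on low counts. The shares of all genes under those settings are not given, so these counts are no result about the members. At an unadjusted p below 0.05 there were 0 members in naive, 5 in dark zone and 0 in light zone cells. Of all genes tested, 319 of 10421, 715 of 9539 and 654 of 9860 had such a p. The 5 in dark zone cells, mt-Rnr1, mt-Rnr2, mt-Nd1, mt-Co1 and mt-Cytb, rested on WT replicate 3, without which the log2 ratio of the mean shares moved from -1.40 to -0.046. mt-Rnr1 was at -0.25 in naive (SE 0.19) and -0.22 in light zone cells (SE 0.21), and mt-Cytb at -0.07 (SE 0.11) and 0.00 (SE 0.13).

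The difference between populations in the genotype effect was tested for each gene in 1 fit over all 32 libraries. 0 of 14 members passed, 0 also at an unadjusted p below 0.05, with mt-Rnr2 lowest at an edgeR adjusted p of 0.704, where 0.0256% of 11736 genes passed. Dark zone WT replicate 3 was in that fit, and the result without it is not given. For the genotypes in plasma cells, a single fit over all groups gave mt-Rnr1 an edgeR adjusted p of 0.199 with that library and 0.0278 without. For mt-Rnr2 these were 0.456 and 0.0383, and for mt-Nd4 0.455 and 0.126. The test therefore does not show equal genotype effects. The lower level of the 4 members in aPIK3CD plasma cells is not shown to be particular to plasma cells.

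The nuclear genes of the same complexes rose with the mitochondrially encoded ones between populations. Of 75 nuclear subunit genes of complexes I to V tested, 68 rose and 1 fell in plasma WT against naive WT cells (median log2 fold change 1.43), and 69 rose in aPIK3CD (median 1.15). Of all genes tested 25.4% and 26.5% rose. Among them were Ndufa1 of complex I (2.71, SE 0.19, adjusted p = 2.42e-08) and Cox6a1 of complex IV (1.84, SE 0.17, adjusted p = 6.41e-07). In the dark zone 58 of 75 rose against naive cells in each genotype, and 1 fell, with medians of 0.86 in WT and 0.66 in aPIK3CD, where 19.8% and 22.2% of all genes rose. The WT values include dark zone replicate 3, and values without it are not given for the nuclear genes. None of the 76 in the table passed 1 count per base in any library, and the highest value was 0.664. Between light and dark zone, with dark zone WT replicate 3 in the WT fit, 0 of 75 passed by edgeR in either genotype. At an unadjusted p below 0.05 there were 1 in WT and 2 in aPIK3CD. Of all genes tested, 1496 of 9639 in WT and 1908 of 9798 in aPIK3CD had such a p.

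Between the genotypes in plasma cells, 1 of 74 nuclear subunit genes passed, where 3.2% of all genes did. It was Ndufs1 of complex I, which rose (0.75, SE 0.14, adjusted p = 0.0219) while the median of the 74 was -0.30 beside 0.00 for all genes and 38 of the 74 had an unadjusted p below 0.05, as had 1809 of all 7771 genes. The medians were -0.43 for complex IV and -0.31 for complex I, and 0.19 for complex II, which has no mitochondrially encoded subunit. Genes that copy and transcribe mitochondrial DNA (10 tested), that process its RNA (19) and that serve mitochondrial translation (39) gave 0 calls by edgeR and 9 genes at an unadjusted p below 0.05. Of 10 tested regulators of mitochondrial biogenesis 1 fell, Gabpb2, a GA-binding protein subunit (-0.95, SE 0.23, adjusted p = 0.0433).

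In plasma WT against naive WT cells calls among genes that handle mitochondrial DNA and RNA are set beside 25.4% of all genes that rose and 24.2% that fell. Of 15 genes of mitochondrial DNA replication and transcription 1 rose and 4 fell, among them Mterf2 (-3.76, SE 0.54, adjusted p = 4.34e-05), and Ssbp1, the mitochondrial single-strand DNA-binding protein, rose (0.72, SE 0.19, adjusted p = 0.00523). Of 21 genes of RNA processing and stability 2 rose and 7 fell. Rexo2, an exonuclease for short RNAs, rose by 3.53 (SE 0.14, adjusted p = 2.20e-10), and Pnpt1, the polynucleotide phosphorylase, was at -1.62 (SE 0.23, adjusted p = 4.02e-05). Of 41 genes of mitochondrial translation 12 rose and 6 fell. Several of these counts lie near the shares over all genes and are no result about the lists. In these bulk samples fewer cells of a type and less RNA per cell cannot be told apart.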

How the data were processed

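Raw counts per gene, whole numbers for 53465 genes in 32 libraries, were used as deposited. The submitters' processing notes name STAR (2.4.2a), HTSeq and Picard as the authors' tools, with no genome build, strand setting or role for Picard. Gene lengths, gene order and transcript sequences came from GENCODE M21, and no coordinates are given. Members are all genes whose name starts with mt-. The members and lists were chosen with earlier results of these data known. Members that passed the count filter are named, and at most 4 genes per list by the smallest p.

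The 8 libraries of a comparison entered their own fit in edgeR 4.0.16 under R 4.3.3: filterByExpr with a minimum count of 10 and a total of 15, TMM, quasi-likelihood F test, Benjamini-Hochberg adjustment over all genes tested, threshold 0.05. Standard errors are the log2 fold change divided by the root of F. CPM of single libraries is per total count, and no column of the table was left unused (0). The scripts were tested on simulated counts. Alternatives were DESeq2 1.42.0 as test or for size factors, no filter, normalization on genes at or below 0.5 counts per base, the log2 total as covariate, a correction for position saturation with a bound of 2 counts per base, a replicate block, 1 fit over all groups, leaving out each replicate, and aPIK3CD replicate 1 as WT. A single fit without the smallest library was added after seeing the data. Within a genotype the libraries of one number share a sample name in their descriptions, and between genotypes only the number. The labels do not say what the name stands for. Depth limits precision most in dark zone WT replicate 3 (25797 counts) and plasma cells (473149 or more). Intervals and floors cover counting error only.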

Additional observations from a re-analysis of the deposited data

Results flagged for a closer look

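In 120 groups of 4 libraries (15 measures in 8 groups), 22 times the highest or lowest library lay apart from the other 3 by Dixon's criterion at the 95% level, which chance gives in about 1 of 20 groups. The measures are not independent, since the counts of the members move together.

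Dark zone WT replicate 3 was low in its total, 25797, in its mitochondrially encoded counts, 1579, and in mt-Rnr1 (143), mt-Rnr2 (517), mt-Nd1 (169), mt-Co1 (175), mt-Nd4 (95), mt-Nd5 (70), mt-Nd6 (59) and mt-Cytb (262). It was high in the mitochondrially encoded share, 6.121%, in the rRNA percentage of the mitochondrially encoded counts, 41.8, and in mt-Rnr2 per mt-Cytb count, 1.973.

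Light zone WT replicate 4, the library of the smallest total of its group, was high in mt-Rnr1 (1011 counts), mt-Rnr1 per mt-Cytb count (0.6287) and mt-Rnr2 per mt-Cytb count (1.396). Naive aPIK3CD replicate 4 was low in mitochondrially encoded counts, 9029, and in mt-Nd2 (684), mt-Nd4 (569) and mt-Nd6 (325). Light zone aPIK3CD replicate 1 was low in mt-Nd2 (823), and plasma WT replicate 1 in mt-Rnr2 (1089).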

How the results depend on the processing

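The count of members that passed moved by over 1.5 times under these settings, and the cause was not tested. The share of all genes called under each setting is not given beside these counts. Between the genotypes in the dark zone (0 called) it was 6 with no filter and 6 with a replicate block, and for light against dark zone in WT (0) it was 6 with no filter. Between the genotypes in plasma cells (4) it was 0 with the log2 total as covariate, 0 in a single fit over all 8 groups (3 in that fit without the smallest library), 0 with aPIK3CD replicate 1 counted as WT, and 0 to 7 without 1 replicate. With the covariate it was 0 for plasma against naive cells in WT (10) and aPIK3CD (9) and 0 for dark zone against naive cells in aPIK3CD (12).

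With the covariate the log2 fold changes of plasma against naive cells turned in WT to -1.28 for mt-Rnr1, -0.56 for mt-Rnr2, -0.23 for mt-Nd1, -0.63 for mt-Nd2, -0.000403 for mt-Co1, -0.23 for mt-Nd4, -0.21 for mt-Nd5, -0.63 for mt-Nd6 and -1.63 for mt-Tp. In aPIK3CD they turned to -1.17 for mt-Rnr1, -1.15 for mt-Rnr2, -0.53 for mt-Nd1, -1.91 for mt-Nd2, -0.0093 for mt-Nd4, -0.94 for mt-Nd6 and -0.0094 for mt-Cytb. Their edgeR adjusted p ran from 0.534 (mt-Rnr1) to 0.999 (mt-Co1) in WT and from 0.793 (mt-Nd2) to 0.999 (mt-Nd4) in aPIK3CD. The totals of naive and plasma cells do not overlap, so these values do not show a reversed direction. Corrected for position saturation, the log2 ratio of mean shares of plasma to naive cells was 1.02 in WT (1.32 uncorrected) and 0.69 in aPIK3CD (0.98). Without 1 replicate the log2 ratio of mean shares ran from -1.67 to -0.046 between the genotypes in the dark zone, from 0.94 to 2.56 for dark zone against naive WT cells and from -1.62 to -0.0015 for light against dark zone WT. In each of these the value nearest 0 was that without dark zone WT replicate 3.

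Same-numbered libraries share a sample name within a genotype and only a number between genotypes. In no comparison did all 4 pairs correlate above 0.1 in their deviations from the group means. For light against dark zone in aPIK3CD the correlations were 0.249, 0.230, 0.052 and 0.062. For dark zone against naive cells in aPIK3CD they were 0.038, 0.146, 0.048 and 0.119. In the other comparisons they lay between -0.076 and 0.083. With the replicate block mt-Tc in dark zone against naive WT cells, mt-Tq in the same comparison in aPIK3CD, mt-Tp in plasma against naive WT cells and mt-Nd4 between the genotypes in plasma cells lost their calls, and 3 members passed between the genotypes in plasma cells. The replicate block left the count of members within 1.5 times in the comparisons not named above.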
